A study of Rattus norvegicus with 21 samples.

Results

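The organic ion uptake transporters of the liver were followed in 6 genes, Slco1a4, Slco1a1, Slco1b2, Slco2b1, Slc10a1 and Slc22a7, chosen by exact match of the platform's gene symbol. They were represented by 9 probe sets of 31099, or 6 gene symbols of 14218, and all 9 passed the filter on low signal. Slco1a4, Slco1b2 and Slco2b1 had 2 probe sets each, and the other 3 genes had 1. Liver RNA came from 21 male rats in a study of 2 compounds, with 1 Affymetrix array per rat and 3 rats per dose group. Piperonyl butoxide (PBO), an insecticide synergist, was given by mouth to Sprague‐Dawley rats for 7 days at 500, 1000 or 1500 mg/kg, and its controls received the vehicle, 0.5% methyl cellulose. Dammar resin (DAM), a plant resin, was given to Fischer344 rats for 28 days in diets of 2% or 5%, stated by the submitters to equal 800 and 2000 mg/kg, and its controls ate the basal diet. Liver tissue went into RNAlater in the PBO experiment and into liquid nitrogen in the DAM experiment. The replicates are described as biological, and no age is given in the sources used here. Values are MAS5 signals on a linear scale, and a change is a difference of log2(signal + 16) with its standard error from limma.

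Hepatocytes take up bile acids, hormones and drugs from sinusoidal blood through carriers in their basolateral membrane. Slc10a1 encodes the sodium-dependent carrier of conjugated bile acids, the Slco genes encode organic anion transporting polypeptides that work without sodium, and Slc22a7 encodes an organic anion transporter of the Slc22 family. These carriers are known to vary with nuclear receptor activity, bile acid load and sex hormones, and Slco1a4 is known in rat liver as a target of the pregnane X receptor.

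The tissue check and the array measures bear on every result below. The 7 hepatocyte markers summed to 216811 to 261974 in PBO 1500 mg/kg livers and 243337 to 307783 in PBO controls, and to 195187 to 233474 in DAM 2000 mg/kg livers and 177624 to 222129 in DAM controls. No value of any marker list was 0 in these groups. PBO 1500 mg/kg replicate 3 stood apart, with a root mean square deviation from its group mean of 0.495 log2 units, beside 0.355 and 0.368 in the other 2 arrays of its group and 0.276 to 0.313 in the 9 arrays of the other PBO groups. The 3′ to 5′ signal ratio of the actin controls, a measure of RNA integrity, was 2.38 to 2.78 at PBO 1500 mg/kg and 2.85 to 3.16 in PBO controls, while it was 5.56 to 9.81 over the DAM arrays. The part of these differences in the results was not tested. In whole liver, fewer cells of a type and less RNA per cell cannot be told apart.

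Slco1a4, a broad carrier of organic anions, steroids and cardiac glycosides, was higher at every dose of both compounds. Probe set 1387093_at had signals of 12556, 11407 and 12375 in the PBO controls, 19638, 19070 and 17884 at 500 mg/kg, 23634, 20358 and 25513 at 1000 mg/kg, and 23630, 21998 and 27992 at 1500 mg/kg. In the DAM study it had 18300, 21112 and 20896 in controls, 37457, 34026 and 37892 at 800 mg/kg, and 41507, 36340 and 38290 at 2000 mg/kg. All dosed animals lay above all controls of their own study. On this probe set the values of 1000 and 1500 mg/kg PBO overlapped, as did those of the 2 DAM doses.

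The change against control on 1387093_at was 0.64 ± 0.11 (SE, n = 3 per group) at PBO 500 mg/kg, 0.93 ± 0.11 at 1000 mg/kg and 1.01 ± 0.11 at 1500 mg/kg (limma adjusted p = 0.0263, 0.000726 and 8.98e-05). These 3 comparisons share their control animals. On the second probe set, 1387094_at, the change was 0.84 ± 0.13, 1.32 ± 0.13 and 1.57 ± 0.13 at those doses. Group means of 1387094_at were 12288 ± 1031 at PBO 1500 mg/kg and 4140 ± 327 in PBO controls (SD, n = 3), a ratio of 2.97. For DAM the change on 1387093_at was 0.86 ± 0.08 at 800 mg/kg and 0.95 ± 0.08 at 2000 mg/kg (limma adjusted p = 8.04e-05 and 9.96e-06), and on 1387094_at 1.37 ± 0.08 and 1.55 ± 0.08. Both probe sets thus moved the same way with different sizes, and over the 21 arrays, centred within each study, they had a Pearson r of 0.984.

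No single step between doses passed the test for Slco1a4. On 1387094_at the 1000 mg/kg group lay above the 500 mg/kg group without overlap, yet the difference of 0.48 ± 0.13 had a limma adjusted p = 0.799. The DAM 2000 mg/kg group likewise lay above the 800 mg/kg group on 1387094_at, with a difference of 0.18 ± 0.08 (limma adjusted p = 0.375). The slope over the 4 PBO groups passed, with 0.33 ± 0.05 per 500 mg/kg on 1387093_at and 0.52 ± 0.05 on 1387094_at (limma adjusted p = 0.000331 and 2.15e-05). The call at 500 mg/kg rested on every animal for 1387093_at, whose adjusted p ranged from 0.0593 to 0.142 when 1 of the 6 compared animals was left out, and it was lost for 1387094_at without PBO 500 mg/kg replicate 1 or control replicates 2 or 3 (adjusted p = 0.0644, 0.0644 and 0.0583). The calls at the other 4 doses were kept in every alternative run.

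Slco1a1, the neighbouring gene whose protein carries steroid conjugates and other organic anions, was higher in DAM livers. Its probe set 1387567_at had signals of 3557, 2614 and 3565 in DAM controls, 4860, 4177 and 5308 at 800 mg/kg, and 5462, 4564 and 4932 at 2000 mg/kg. Every DAM-fed animal exceeded every control. The change was 0.56 ± 0.13 at 800 mg/kg (limma adjusted p = 0.0255) and 0.63 ± 0.13 at 2000 mg/kg (limma adjusted p = 0.00585). The call at 800 mg/kg was lost without DAM 800 mg/kg replicate 1 or 3 or control replicate 2 (adjusted p = 0.0857, 0.110 and 0.0696). It was also lost with eBayes without trend (adjusted p = 0.128).

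In the PBO study Slco1a1 did not pass the test at any dose. Its signals were 4486, 4627 and 4474 in controls, 5013, 4321 and 4082 at 500 mg/kg, 5146, 5021 and 5205 at 1000 mg/kg, and 4744, 4925 and 3059 at 1500 mg/kg. The lowest value was that of replicate 3 at 1500 mg/kg, and the other 2 animals of that group lay above all 3 controls. The change at 1500 mg/kg was -0.13 ± 0.16 (95% interval -0.46 to 0.21), and 0.09 without replicate 3.

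The promoters of Slco1a4 and Slco1a1 are shown because these adjacent relatives both rose under DAM, and Slco1a4 alone passed the test under PBO. In RefSeq's GRCr8 assembly Slco1b2, Slco1a4 and Slco1a1 are consecutive protein-coding genes on chromosome 4. The 250 bases before the start lie at chr4:176495847-176496096 for Slco1a4 and at chr4:176681993-176682242 for Slco1a1, both on the minus strand, and are printed 5′ to 3′ along that strand with no capitals because none of the 4 motifs searched occurs in them.
Slco1a4: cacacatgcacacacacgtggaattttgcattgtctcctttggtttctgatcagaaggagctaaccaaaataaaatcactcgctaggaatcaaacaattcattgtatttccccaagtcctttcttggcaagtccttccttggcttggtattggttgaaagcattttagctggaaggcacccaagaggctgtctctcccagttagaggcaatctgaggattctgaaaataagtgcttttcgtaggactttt
Slco1a1: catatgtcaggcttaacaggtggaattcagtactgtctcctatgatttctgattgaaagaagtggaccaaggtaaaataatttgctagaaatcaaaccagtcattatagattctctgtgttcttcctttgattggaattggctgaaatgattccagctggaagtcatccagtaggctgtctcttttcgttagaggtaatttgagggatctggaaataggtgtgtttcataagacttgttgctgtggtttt
In an alignment of these windows, 176 of 265 columns were identical (66.4%), against 44.5% to 51.3% for the other pairs of the 6 promoters. The motifs searched on both strands were the nuclear receptor half-sites AGGTCA and AGTTCA, the HNF1 half-site GTTAAT and the aryl hydrocarbon receptor core GCGTG. Of 27457 promoter windows of this length, 13.7%, 12.1%, 6.46% and 27.2% held them, in that order, and each of the first 3 occurred in 2 of the 6 genes and GCGTG in 0. Whether probes of one Slco1a gene also bind transcripts of the other was not tested.

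Slco1b2, a liver-restricted carrier of bile acids and drugs, passed the test against control only at DAM 2000 mg/kg, on 1 of its 2 probe sets. Its probe set 1387679_at had signals of 11562, 11197 and 12149 at DAM 2000 mg/kg and 14032, 13000 and 14265 in DAM controls, groups that did not overlap. The change was -0.24 ± 0.07 (limma adjusted p = 0.0393), and the mean fell by 15.5%. That call was lost under 8 alternatives, with an adjusted p of 0.402 and a change of -0.13 after scaling arrays to a common median, and without either of 2 animals in each group (DAM 2000 mg/kg replicates 1 and 2, control replicates 1 and 3; adjusted p between 0.0924 and 0.131). On 1369746_a_at the change was -0.16 ± 0.09 (adjusted p = 0.270), with overlapping groups.

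Under PBO neither Slco1b2 probe set passed the test at any dose. Signals of 1387679_at were 10385, 11163 and 5425 at 1500 mg/kg and 9517, 7924 and 13757 in controls. The spread in these 2 groups, with SDs of 3113 and 3015, was far wider than the SDs of 401 at 500 mg/kg and 534 at 1000 mg/kg. The change at 1500 mg/kg was -0.24 ± 0.24 (95% interval -0.76 to 0.28) and turned to 0.09 without replicate 3. All but GCGTG of the motifs named above occur once each in the promoter of Slco1b2, within the 78 bases before its start.

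Slco2b1, a carrier of sulfated steroids that many tissues express, fell at the highest PBO dose on 1 of its 2 probe sets. Probe set 1368295_at had signals of 1725, 1857 and 2029 in PBO controls, 2044, 2093 and 1825 at 500 mg/kg, 1650, 1827 and 1660 at 1000 mg/kg, and 1121, 1343 and 1084 at 1500 mg/kg. All 3 livers at 1500 mg/kg lay below every other liver of the study. The change at 1500 mg/kg was -0.66 ± 0.12 (limma adjusted p = 0.00266) and the slope -0.22 ± 0.05 per 500 mg/kg (limma adjusted p = 0.00953). The step between 1500 and 1000 mg/kg, -0.53 ± 0.12, had a limma adjusted p = 0.0511, just over the threshold. It passed in 4 of 16 alternatives. With 1 animal left out the adjusted p ranged from 0.0194, without PBO 1500 mg/kg replicate 2, to 0.185. On the second probe set, 1368296_at, this step was -0.43 ± 0.23 (limma adjusted p = 0.353).

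The dimmer probe set of Slco2b1, 1368296_at, had signals of 546, 899 and 521 at PBO 1500 mg/kg and 634, 963 and 970 in controls. Its change of -0.39 ± 0.23 had a limma adjusted p = 0.272, and the 2 probe sets had an r of 0.742 over the 21 arrays. Under DAM neither passed, with 1368295_at at 0.08 ± 0.08 and 1368296_at at -0.05 ± 0.14 for 2000 mg/kg. Signals of 1368296_at were 169.8 to 207 over all DAM livers and 521 to 1045 over all PBO livers, and those of 1368295_at were 2261 to 3026 and 1084 to 2093. Undosed livers also differed, with 169.8 to 207 in DAM controls and 634 to 970 in PBO controls on 1368296_at. On 1368295_at they had 2615 to 2644 in DAM controls and 1725 to 2029 in PBO controls. DAM livers thus lay lower than PBO livers on 1368296_at and higher on 1368295_at. The 2 probe sets therefore give no single direction for the level of this gene between the studies. Strain, vehicle or diet, duration and storage cannot be told apart in these levels of animals without either compound, which were not tested. The actin 3′ to 5′ ratio differed as well, at 7.08 to 9.81 in DAM controls and 2.85 to 3.16 in PBO controls.

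Slc10a1, the bile acid carrier, fell at PBO 1500 mg/kg and did not pass the test at any other dose against control. Its probe set 1368609_at had signals of 27003, 27117 and 26239 in PBO controls, 25973, 27505 and 25587 at 500 mg/kg, 22925, 23051 and 25201 at 1000 mg/kg, and 13126, 16447 and 10473 at 1500 mg/kg. The 3 livers at 1500 mg/kg lay far below all others, and those at 1000 mg/kg lay below the controls by a smaller margin. Group means were 13348 ± 2993 at 1500 mg/kg and 26786 ± 477 in controls (SD, n = 3), so that the mean fell by 50.2%. The change was -1.03 ± 0.13 (limma adjusted p = 0.000262), and -0.87 (adjusted p = 5.82e-05) without replicate 3, the lowest animal.

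Most of the fall of Slc10a1 lay between the 2 upper doses. The step between 1500 and 1000 mg/kg was -0.85 ± 0.13 (limma adjusted p = 0.0128). This call was lost without PBO 1000 mg/kg replicate 2 or 3 (adjusted p = 0.0658 and 0.0507). It was also lost in a fit of those 2 groups alone (adjusted p = 0.167) and without trend (adjusted p = 0.0629). The slope was -0.32 ± 0.06 per 500 mg/kg (limma adjusted p = 0.00355), and the 1000 mg/kg group lay wholly below the 500 mg/kg group. The changes at 500 and 1000 mg/kg were -0.02 ± 0.13 and -0.18 ± 0.13 (limma adjusted p = 0.979 and 0.579). In the DAM study signals were 23081, 21720 and 23345 at 2000 mg/kg and 20767, 22263 and 22201 in controls. The 2 DAM groups overlapped, and the change of 0.06 ± 0.07 had a 95% interval of -0.09 to 0.21.

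Slc22a7, a carrier of small organic anions such as salicylate and prostaglandins, fell under both compounds. Its probe set 1398267_at had signals of 6320, 6583 and 5682 in PBO controls, 5683, 5207 and 5926 at 500 mg/kg, 4872, 5034 and 4213 at 1000 mg/kg, and 3480, 4080 and 3109 at 1500 mg/kg. In the DAM study it had 4516, 5096 and 4613 in controls, 3940, 3934 and 3907 at 800 mg/kg, and 2945, 3126 and 3213 at 2000 mg/kg. The groups at 1000 and 1500 mg/kg PBO and both DAM-fed groups each lay wholly below the next lower dose, whereas the 500 mg/kg group overlapped the controls.

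The change of Slc22a7 at PBO 1500 mg/kg was -0.80 ± 0.12 (limma adjusted p = 0.000752), with a mean of 3556 ± 490 against 6195 ± 463 in controls (SD, n = 3). At 1000 mg/kg it was -0.40 ± 0.12 (limma adjusted p = 0.111), which passed in 3 alternatives: with array weights (0.0242), in a fit of both groups alone (0.0425) and without PBO 1500 mg/kg replicate 3 (0.0287). The slope was -0.27 ± 0.04 per 500 mg/kg (limma adjusted p = 0.000445). For DAM the change was -0.27 ± 0.07 at 800 mg/kg (limma adjusted p = 0.0558) and -0.61 ± 0.07 at 2000 mg/kg (limma adjusted p = 0.000119). The step between those 2 doses, -0.34 ± 0.07, passed (limma adjusted p = 0.0369), but not without any 1 of its 6 animals (adjusted p from 0.0569 to 0.139).

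The promoters of Slc10a1 and Slc22a7 are shown because these genes fell most, one under PBO and the other under both compounds. They lie at chr6:106357945-106358194 on the minus strand and at chr9:22045248-22045497 on the plus strand of GRCr8 (RefSeq), and capitals mark matches to the motifs above on either strand.
Slc10a1: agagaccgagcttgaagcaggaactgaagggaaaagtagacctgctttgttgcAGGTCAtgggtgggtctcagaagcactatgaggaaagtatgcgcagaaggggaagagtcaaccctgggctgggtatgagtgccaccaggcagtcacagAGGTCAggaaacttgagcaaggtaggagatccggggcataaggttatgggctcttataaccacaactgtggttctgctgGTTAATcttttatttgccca
Slc22a7: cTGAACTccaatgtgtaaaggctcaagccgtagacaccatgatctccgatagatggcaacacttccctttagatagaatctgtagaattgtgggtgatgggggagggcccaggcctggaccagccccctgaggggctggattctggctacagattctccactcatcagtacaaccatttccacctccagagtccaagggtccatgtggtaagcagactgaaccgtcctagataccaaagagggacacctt
Slc10a1 held AGGTCA at 2 places, 197 to 192 and 99 to 94 bases before the start, and GTTAAT from 20 to 15 bases before it. Slc22a7 held 1 match to AGTTCA on the opposite strand, 249 to 244 bases before the start. These are letter matches only.

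**Figure D1:**
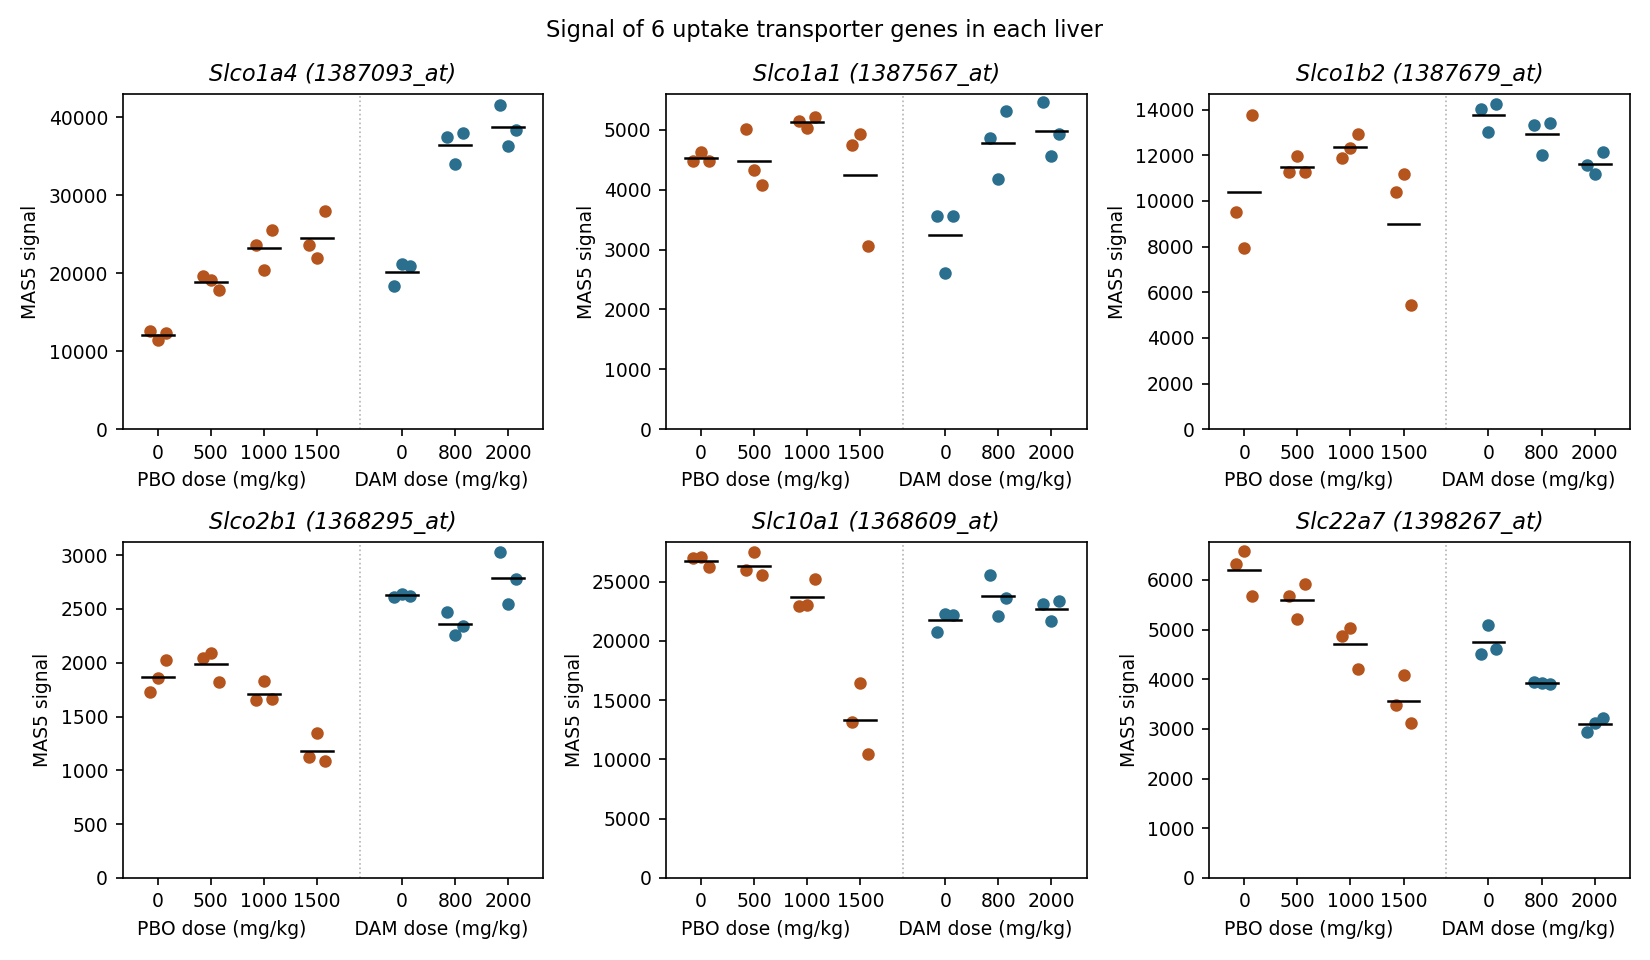
MAS5 signal (linear axis from 0) of the 6 genes on the probe set with the highest mean signal, one point per liver and a bar for the group mean, against PBO dose (left, 0 to 1500 mg/kg) and DAM dose (right, 0 to 2000 mg/kg). Slco1a4 is higher in all dosed groups, Slc10a1 lies between 10473 and 16447 at PBO 1500 mg/kg and at 20767 or more in all other livers, and Slc22a7 is lower at the highest dose of both compounds.

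Counted over the 9 probe sets, 2 were higher and 0 lower at PBO 500 mg/kg, where 0.349% of all 18625 tested probe sets were called higher and 0.129% lower. At 1000 mg/kg again 2 were higher and 0 lower, against 1.88% and 1.23% of all. At 1500 mg/kg 2 were higher and 3 lower, against 8.08% and 9.26%, and the slope over dose gave the same counts, against 7.92% and 8.84%. Between 1000 and 500 mg/kg limma called 0 (2 at an unadjusted p under 0.05), with 0% of all called higher and 0.0107% lower. Between 1500 and 1000 mg/kg 0 were higher and 1 lower, against 0.612% and 0.591%. For DAM, 3 were higher and 0 lower at 800 mg/kg, against 2.16% and 1.62%, and 3 were higher and 2 lower at 2000 mg/kg, against 6.22% and 6.11%. Between 2000 and 800 mg/kg 0 were higher and 1 lower, against 0.392% and 0.719%. The 2 Slco1a4 probe sets measure 1 gene, so 3 of the 5 calls at DAM 2000 mg/kg belong to Slco1a4 and Slco1a1. The median change of the 9 was -0.24 at PBO 1500 mg/kg and 0.06 at DAM 2000 mg/kg, beside -0.08 and -0.04 over all tested probe sets.

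**Figure D2:**
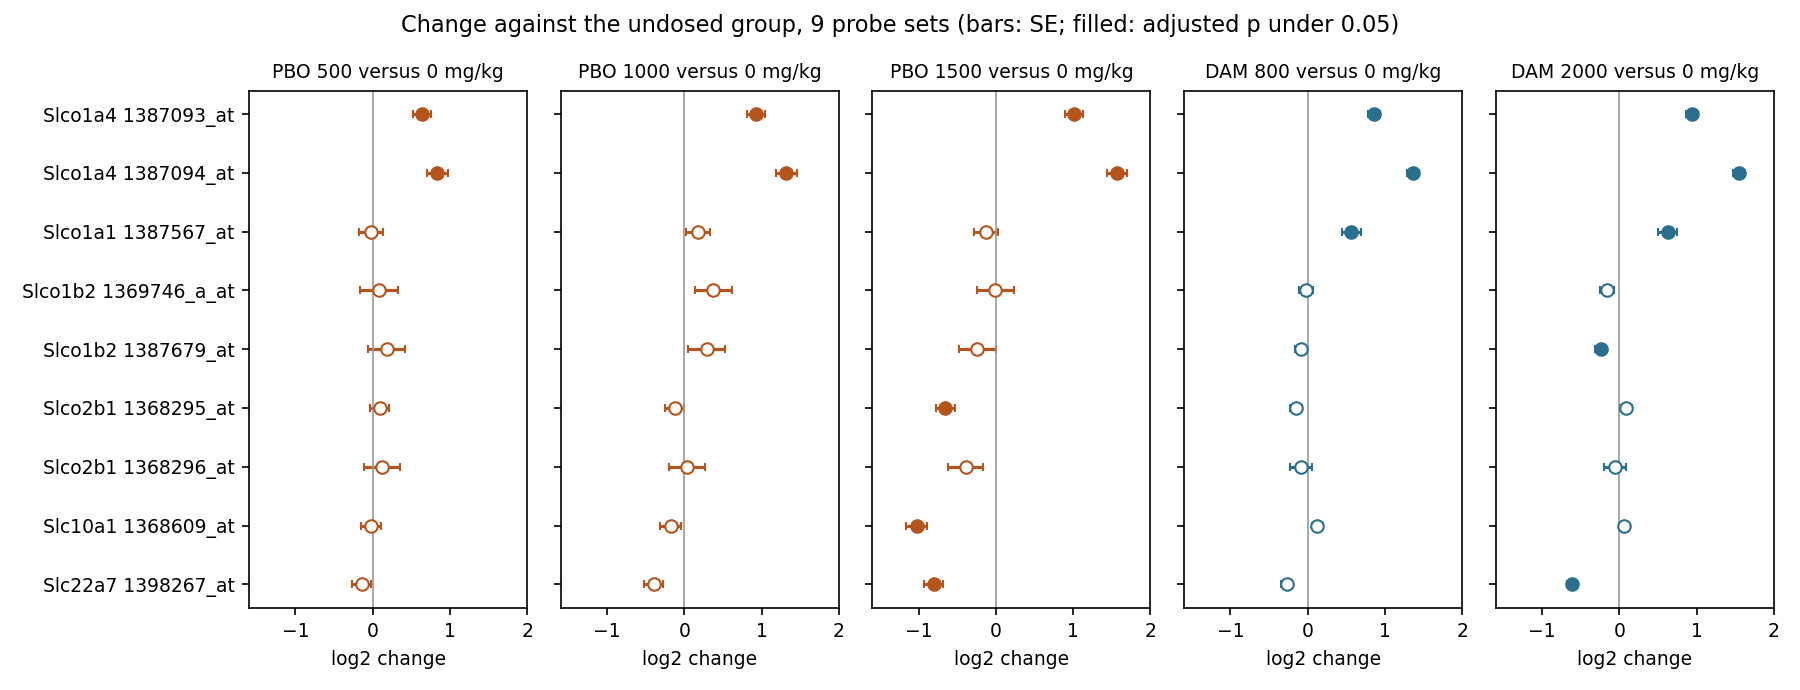
Change of each of the 9 probe sets against the undosed group of its study (x axis, log2(signal + 16) scale) in the 5 comparisons, with the standard error as bars and filled points for an adjusted p under 0.05. Both Slco1a4 probe sets are filled and positive in all 5 panels, and the Slc10a1 point is filled only at PBO 1500 mg/kg, at -1.03.

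The effects of the highest doses were set against each other by fitting the difference over all 21 arrays. The compounds differ also in strain, route, duration and tissue storage, and these cannot be told apart from the compound. The PBO effect was the lower in 3 of the 9 probe sets and the higher in 0, against 2.77% and 2.14% of all tested. The PBO effect minus the DAM effect was -1.09 ± 0.16 for Slc10a1 (limma adjusted p = 0.000522) and -0.74 ± 0.14 for Slco2b1 on 1368295_at (limma adjusted p = 0.00473). For Slco1a1 it was -0.75 ± 0.22 (limma adjusted p = 0.0493), a call lost under 14 alternatives. Of these, 10 left out 1 animal: any animal of the PBO controls, the DAM 2000 mg/kg group or the DAM controls, or PBO 1500 mg/kg replicate 3, without which it was -0.53 (adjusted p = 0.0650). For Slco1a4 the difference was 0.07 ± 0.14 on 1387093_at (95% interval -0.23 to 0.36) and 0.02 ± 0.16 on 1387094_at (-0.32 to 0.35). For Slc22a7 it was -0.19 ± 0.14 (-0.49 to 0.10). These intervals bound how far the 2 effects on Slco1a4 and Slc22a7 could lie apart; they do not show that the compounds act alike.

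**Figure D3:**
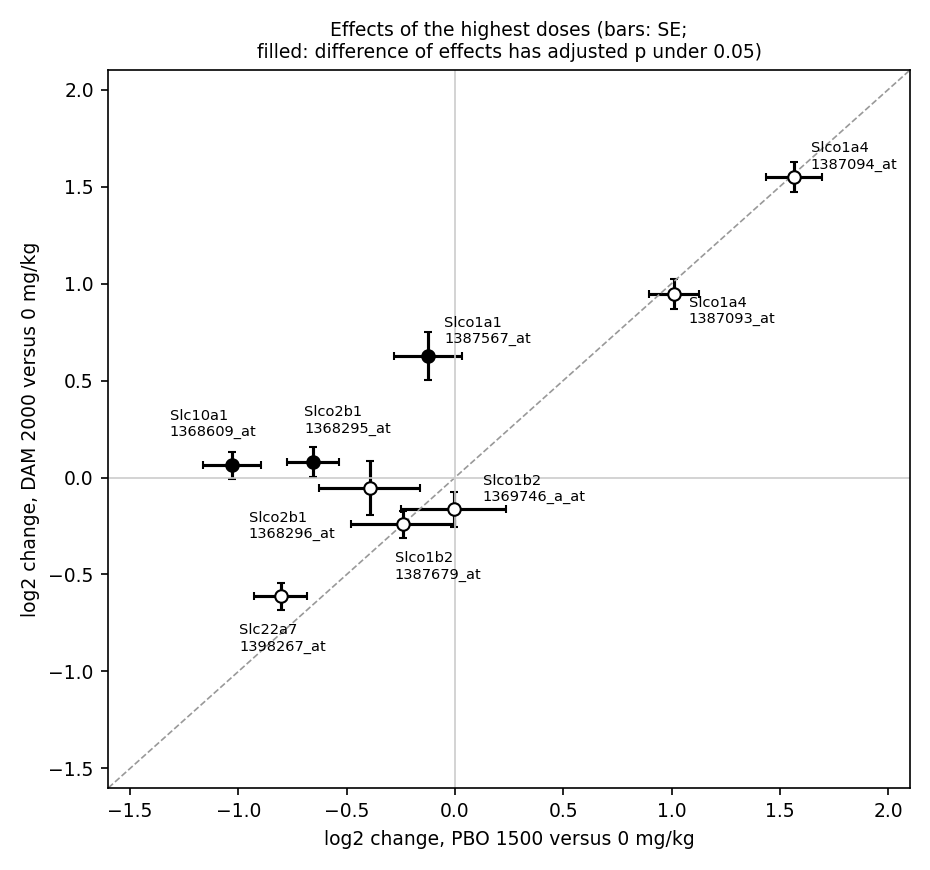
Change at PBO 1500 mg/kg (x axis) against change at DAM 2000 mg/kg (y axis) for the 9 probe sets, both on the log2 scale with standard errors; the dashed line marks equal effects and filled points have a difference of effects with an adjusted p under 0.05. Slco1a4 lies on the line at the upper right, Slc22a7 near it at the lower left, and Slc10a1, Slco2b1 on 1368295_at and Slco1a1 lie above it.

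Other carriers of the liver were examined as a list of 34 genes, of which 29 had a probe set and 19 passed the filter in the PBO study and 21 in the DAM study. At PBO 1500 mg/kg 2 of 19 were higher and 5 lower, where 8.08% of all tested probe sets were called higher and 9.26% lower. At DAM 2000 mg/kg 3 of 21 were higher and 5 lower, where 6.22% and 6.11% of all were called. At PBO 500 mg/kg limma called 0 of 19 (4 at an unadjusted p under 0.05), and at 1000 mg/kg 0 were higher and 2 lower, against 1.88% and 1.23% of all. At DAM 800 mg/kg 1 was higher and 4 lower, against 2.16% and 1.62%. Of these 5, Slc13a3, Slc29a1, Slc22a23 and Slc10a2 lost their call without DAM 800 mg/kg replicate 1 or 2 or control replicate 1 (adjusted p between 0.0844 and 0.157). Without control replicate 2 all of these but Slc22a23 lost it (0.0824 to 0.107), and without replicate 3 of either group Slc22a23 lost it (0.0692 at 800 mg/kg and 0.0984 in controls). The fifth, Slc22a8, lost its call without trend (0.0614) and under median scaling (0.0707), as did the other 3 lower calls in both settings and Slc13a3 without trend. The median of the list was -0.20 at PBO 1500 mg/kg and -0.27 at DAM 2000 mg/kg, beside the -0.08 and -0.04 of all probe sets.

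Slc22a8, an organic anion transporter of the same family as Slc22a7, had the deepest fall among the tested genes of the list at the highest dose of both compounds. Its signals were 6781, 8089 and 6702 in PBO controls, 4456, 2751 and 3311 at 500 mg/kg, 1696, 2294 and 1091 at 1000 mg/kg, and 691, 922 and 983 at 1500 mg/kg. In DAM livers they were 3370, 3353 and 3013 in controls, 2473, 2235 and 2458 at 800 mg/kg, and 1316, 1349 and 1281 at 2000 mg/kg. No group overlapped its neighbour at the next dose, and the changes were -3.04 ± 0.24 at PBO 1500 mg/kg and -1.29 ± 0.08 at DAM 2000 mg/kg (limma adjusted p = 7.14e-06 and 7.23e-07). The difference of these effects was -1.75 ± 0.28 (limma adjusted p = 0.00144), and no alternative changed these 3 calls.

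Slc10a2, the ileal-type bile acid carrier also found on bile ducts, fell by 1.91 ± 0.26 on the log2 scale at PBO 1500 mg/kg (limma adjusted p = 0.000428), and the lactate carrier Slc16a1 fell by 0.98 ± 0.16 (limma adjusted p = 0.0015). Slc16a1 also fell at DAM 2000 mg/kg, with -0.61 ± 0.09 (limma adjusted p = 0.000643). For Slc10a2 the signals at DAM 2000 mg/kg were 170, 178 and 230, all below the 437, 368 and 305 of DAM controls. The carnitine carrier Slc22a5 was higher at PBO 1500 mg/kg by 1.41 ± 0.32 (limma adjusted p = 0.0097), with 614, 400.2 and 1301 against 214, 248 and 287 in controls; the call held without replicate 3, where the change was 0.96, and was lost in a fit of both groups alone (adjusted p = 0.0633). Slc22a18 was higher in both studies, by 0.56 ± 0.12 at PBO 1500 mg/kg and 0.42 ± 0.08 at DAM 2000 mg/kg (limma adjusted p = 0.00645 and 0.00518). Slc15a1, also on the list, did not pass the filter on low signal and was not tested. Its signals were 184, 104 and 391 at PBO 1500 mg/kg and 5.9, 13.7 and 6.3 in PBO controls. In all DAM livers they were 28.3 or less. The bile acid-activating enzyme Slc27a5 fell by 0.56 ± 0.15 on the log2 scale at PBO 1500 mg/kg (limma adjusted p = 0.024), a call lost without PBO 1500 mg/kg replicate 1 or control replicate 2 (adjusted p = 0.0537 and 0.103), under median scaling (-0.43, 0.0713), without trend (0.0581) and with both groups alone (0.0553). At DAM 2000 mg/kg Slc22a23 changed by -0.93 ± 0.09, the nucleoside carrier Slc29a1 by -0.71 ± 0.13 and the dicarboxylate carrier Slc13a3 by 0.92 ± 0.13 (limma adjusted p = 3.76e-05, 0.00343 and 0.000769).

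**Figure D4:**
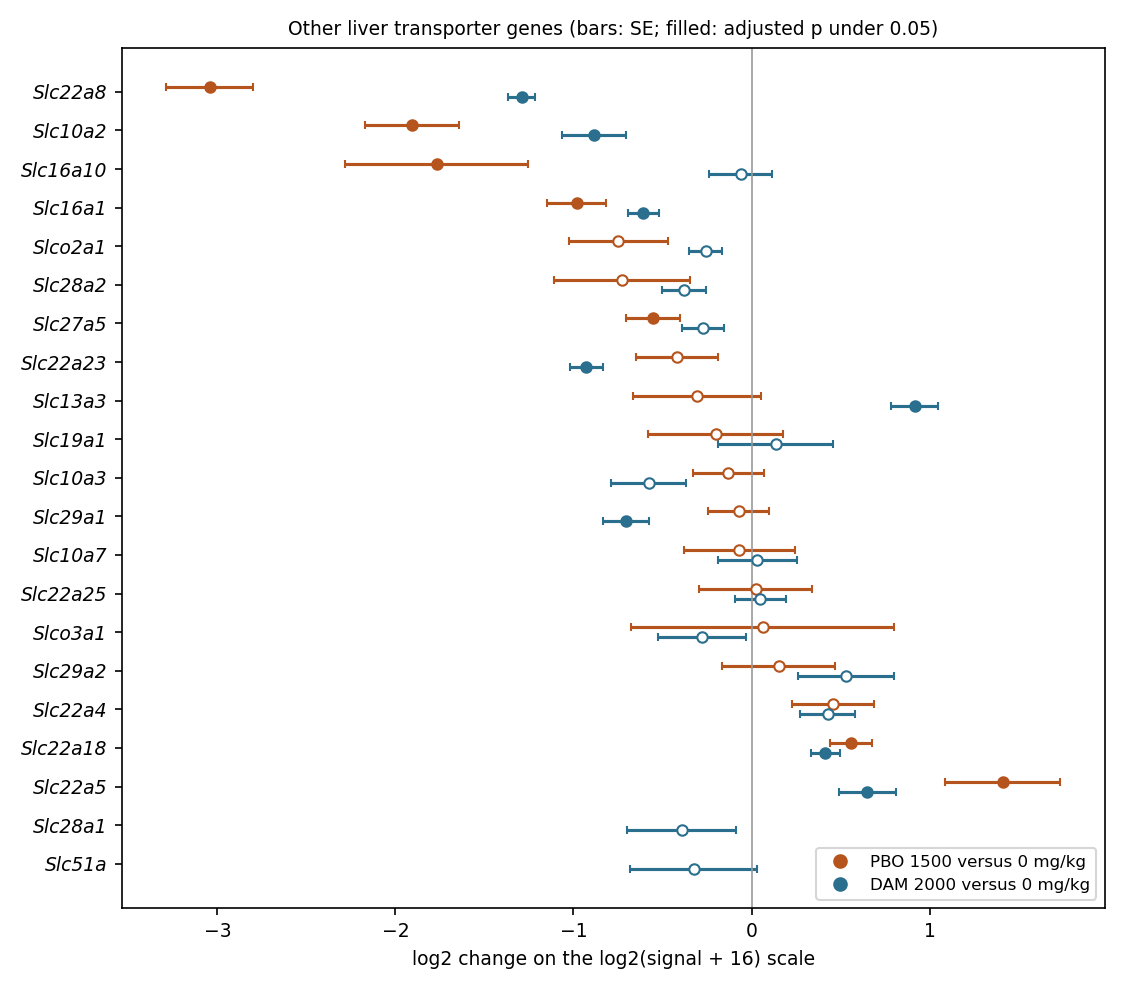
Change of the other liver transporter genes that passed the filter, at PBO 1500 mg/kg (upper of each pair) and DAM 2000 mg/kg (lower), with standard errors and filled points for an adjusted p under 0.05; genes run in order of the PBO change. Among the genes shown, Slc22a8 has the deepest fall for both compounds, at -3.04 and -1.29, and Slc22a5 the highest rise for PBO, at 1.41. Slc15a1 did not pass the filter and is not shown.

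Transcription factors and coregulators known to act on carrier genes formed a second list, of 27 genes with 25 on the array. At PBO 1500 mg/kg 1 of 22 tested was higher and 2 were lower, a share no higher than the 8.08% and 9.26% of all tested probe sets. At DAM 2000 mg/kg 3 of 20 were higher and 7 lower, where 6.22% and 6.11% of all were called. The medians were -0.26 at PBO 1500 mg/kg and -0.21 at DAM 2000 mg/kg, beside -0.08 and -0.04 over all tested probe sets. At PBO 500 mg/kg limma called 0 of 22 (2 at an unadjusted p under 0.05). Nr3c1, the glucocorticoid receptor, fell under both compounds, with changes of -1.50 ± 0.17 at PBO 1500 mg/kg and -0.58 ± 0.10 at DAM 2000 mg/kg (limma adjusted p = 7.33e-05 and 0.00167). The difference of its effects was -0.91 ± 0.20 (limma adjusted p = 0.0128). Hnf4a, a hepatocyte nuclear factor, changed by -0.59 ± 0.14 at PBO 1500 mg/kg (limma adjusted p = 0.0106). Its signals at DAM 2000 mg/kg were 11634, 11562 and 10250, all below the 13842, 15044 and 13577 of DAM controls. Ahr, the aryl hydrocarbon receptor, was higher at PBO 1500 mg/kg by 1.49 ± 0.42 (limma adjusted p = 0.0265). Its signals were low, with 242, 114 and 249 against 85.2, 66.7 and 31.9 in controls. This call was lost without PBO 1500 mg/kg replicate 1 or 3 or control replicate 2 or 3 (adjusted p = 0.0727, 0.0670, 0.0535 and 0.107). It was also lost in a fit of both groups alone (0.0624), and with the filter at the 60th percentile Ahr was not tested.

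At DAM 2000 mg/kg the repressor Bcl6 had signals of 254, 199 and 343, against 1653, 5542 and 6440 in controls, a change of -3.83 ± 0.38 (limma adjusted p = 3.75e-05). Nr0b2, which mediates bile acid feedback, changed by -2.58 ± 0.19 (limma adjusted p = 3.59e-06), with 737, 700.5 and 476 against 3368, 4649 and 3569. Cebpb fell and the pioneer factors Foxa2 and Foxa1 rose, with changes of -0.93 ± 0.09, 1.80 ± 0.22 and 0.84 ± 0.14 (limma adjusted p = 3.2e-05, 0.000188 and 0.00238). The difference of the PBO and DAM effects was 3.19 ± 0.69 for Nr0b2 and 1.68 ± 0.39 for Cebpb (limma adjusted p = 0.0109 and 0.016). For Foxa2 it was -2.38 ± 0.56 (limma adjusted p = 0.0188), a call lost without PBO control replicate 1 or 3, DAM 2000 mg/kg replicate 3 or DAM control replicate 3 (adjusted p = 0.0543, 0.0537, 0.0526 and 0.0554). Whether any of these genes acts on the carriers here was not tested.

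Markers of cell types were also examined at PBO 1500 mg/kg, where Slc10a1, Slco2b1 and Slc22a7 fell. Of all tested probe sets, 8.08% were called higher in that comparison and 9.26% lower. Of the tested hepatocyte markers, 2 of 7 were lower (Cps1 and Fgb) and 0 higher. Of the Kupffer cell and macrophage markers 3 of 8 were lower, and their summed signal was 2989 to 13760 at 1500 mg/kg and 16938 to 19342 in PBO controls. Erythroid markers were lower in 2 of 3, with sums of 4350 to 9993 at 1500 mg/kg and 21596 to 22811 in controls. Every non-parenchymal sum named so far lay below the controls without overlap. Of the stellate cell markers Lrat and Col3a1 were lower, at -1.41 and -1.02, while the other 4 of the 6 stood at 0.10 to 0.41 and did not pass. The sums over all 6 were 3123 to 7872 at 1500 mg/kg and 8079 to 10173 in controls. Sinusoidal endothelial markers were lower in 1 of 4, with 6451 to 7529 at 1500 mg/kg and 8928 to 9750 in controls. Of the T and NK cell markers 1 of 2 tested was lower. Of the cholangiocyte markers 1 of 3 was higher, Epcam with a change of 2.06, while Krt19 at -0.31 and Spp1 at 0.51 did not pass, and their sums were 3465 to 4226 at 1500 mg/kg and 1096 to 1422 in controls.

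At DAM 2000 mg/kg, where Slco1a1 and Slco1a4 rose and Slc22a7 fell, 1 of 7 hepatocyte markers was higher (Apoa1) and 1 lower (Tat). Of all tested probe sets, 6.22% were called higher in that comparison and 6.11% lower. Macrophage markers were lower in 1 of 8, with sums of 12166 to 15115 at 2000 mg/kg and 16302 to 17341 in DAM controls. Stellate cell markers were lower in 2 of 6, with 7216 to 7381 and 8739 to 9888 in those groups, and 1 of 2 tested cholangiocyte markers was higher, with 1599 to 1743 at 2000 mg/kg and 670.5 to 924 in controls. Of the sinusoidal endothelial, erythroid and T and NK cell markers, limma called 0 of 4, 0 of 3 and 0 of 3 (0, 0 and 1 at an unadjusted p under 0.05). Their sums overlapped those of DAM controls, with 4162 to 7134 against 6398 to 7925 for endothelial markers. Erythroid sums were 10079 to 21815 against 13010 to 17643, and T and NK cell sums 192 to 320 against 245 to 322. The part of these cells in the carriers' values was not tested.

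Likeness of pattern was described by Pearson r over the 21 arrays centred within each study; these arrays share dose groups, so r holds the dose response as well as the spread between animals. Slco1a4 was most like Gstm2 (0.943), Aldh1a1 (0.943) and Degs1 (0.941), and with the 2 arrays farthest from its median left out the values were 0.918, 0.916 and 0.921. Slc10a1 was most like Car3 (0.970), Htra1 (0.963) and F12 (0.961), and those fell to 0.895, 0.862 and 0.849 without PBO 1500 mg/kg replicates 1 and 3. Slc22a7 was most like Tsc22d1 (0.950), Slc38a3 (0.930) and Crym (0.930). Slco2b1 was nearest to C8g (0.926), Arrdc3 (0.923) and F12 (0.908), and Slco1a1 to Cyp27a1 (0.860), Pcsk6 (0.850) and Pls3 (0.810). With the 2 farthest arrays left out, Slco2b1 had 0.840, 0.808 and 0.775, and Slco1a1 had 0.765, 0.736 and 0.801. Both left out PBO 1500 mg/kg replicate 3. Slc22a7 then had 0.932, 0.885 and 0.930. For Slco1b2 the nearest were Mmut (0.919), Igip (0.899) and Eif4a2 (0.897), values that dropped to 0.784, 0.696 and 0.681 without PBO 1500 mg/kg replicate 3 and PBO control replicate 2. Among the 6 genes themselves r was highest between Slco2b1 and Slc10a1 (0.886) and lowest between Slco1a4 and Slc22a7 (-0.825).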

How the data were processed

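Liver RNA of 21 rats was measured on 1-colour Affymetrix arrays. The authors deposited 1 table of linear intensity values; MAS5 is named, without a version, in the submitters' processing notes. The mean after trimming 2% at each end was 500.2 to 500.3 on every array. Arrays give no count-based depth, and 3 arrays per group limit the precision. No 2 arrays were identical, and the highest correlation between 2 was 0.979.

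The deposited values were not rescaled, and log2(signal + 16) was taken. Probe sets above the 40th percentile of mean log2 value were tested, which left 18625. Each study was fitted with all its arrays by limma (lmFit, eBayes with trend), and the difference between compounds over all 21 arrays. P-values were adjusted by Benjamini-Hochberg over all tested probe sets, with a threshold of 0.05; the PBO slope used steps of 500 mg/kg. List genes were represented by the tested probe set with the highest mean, and up to 6 called genes per list and comparison with the smallest adjusted p were named, with the 3 genes most like each member. The genes, lists and tests were chosen with earlier results of these data known. Promoter sequences come from RefSeq (GRCr8); all 6 genes matched by symbol. The fits were tested on simulated data. Same-numbered animals did not deviate together (correlations of -0.07 to 0.03 over 18 pairs of PBO arrays and -0.06 to 0.10 over 9 pairs of DAM arrays), so replicate numbers were not taken as pairs.

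Alternatives were quantile normalization, median scaling, pseudocounts of 1 and 64, the 60th percentile or no filter, eBayes without trend, the replicate block, array weights, only the arrays of both groups, and each array left out. R 4.3.3, limma 3.58.1, Python 3.11.15, matplotlib 3.10.9, scipy 1.17.1 and Biopython 1.88 were used.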

Additional observations from a re-analysis of the deposited data

Results flagged for a closer look

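In 3 genes the effect of PBO 1500 mg/kg differed from that of DAM 2000 mg/kg by a test of the difference itself (limma, all 21 arrays). These were 3 of the 9 probe sets, each with the lower effect under PBO. Of all tested probe sets, 2.77% were called lower in this comparison and 2.14% higher. The difference was -1.09 for Slc10a1, where PBO livers fell by 1.03 on the log2 scale and the DAM change was 0.06. It was -0.74 for Slco2b1 on 1368295_at, where the changes were -0.66 under PBO and 0.08 under DAM, and the second probe set, 1368296_at, gave -0.34 (adjusted p = 0.553). It was -0.75 for Slco1a1, with -0.13 under PBO and 0.63 under DAM (limma adjusted p = 0.0493). That call was lost under 14 of 21 alternatives. Among them were the runs without PBO 1500 mg/kg replicate 3 and without any 1 animal of either control group or of DAM 2000 mg/kg. Compound, strain, route, duration and storage cannot be told apart in these differences. Groups of 3 are too small for the check on single outlying animals.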

How the results depend on the processing

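Of 1557 recomputed values of single probe sets of the 6 genes, 1447 kept their direction and side of the threshold, 53 lost a call, 10 gained one and 47 changed sign without being called; none reversed a call. Calls that were kept in every alternative were those of Slco1a4 at PBO 1000 and 1500 mg/kg, in the slope and at both DAM doses, of Slc10a1, Slco2b1 (1368295_at) and Slc22a7 at PBO 1500 mg/kg and in the slope, of Slc10a1 and Slco2b1 (1368295_at) in the difference of compounds, and of Slco1a1 and Slc22a7 at DAM 2000 mg/kg. Of 9 probe sets, the number called at PBO 500 mg/kg was 2, but 1 with no filter or quantile normalization and 0 with eBayes without trend. Between PBO 1500 and 1000 mg/kg it was 1, but 2 with a pseudocount of 64, the 60th percentile or array weights, and 0 without trend or with only both groups. Between DAM 2000 and 800 mg/kg it was 1, but 0 with no filter, median scaling, no trend or the replicate block (adjusted p of Slc22a7 0.0701); the block changed no other call of these genes. The cause was not tested. With 1 array left out the counts ranged from 0 to 2 (PBO 500), 0 to 3 (PBO 1500 versus 1000) and 0 to 0 (DAM 2000 versus 800), and from 2 to 3 (PBO 1000), 5 to 5 (PBO 1500 and slope), 2 to 3 (DAM 800), 4 to 5 (DAM 2000) and 2 to 3 (difference of compounds).

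Over all 18625 probe sets, the calls at PBO 500 mg/kg numbered 89, but 348 with array weights, 269 with only both groups, 45 without trend and 52 to 371 with 1 array left out (371 without PBO 1500 mg/kg replicate 3). At 1000 mg/kg they numbered 581, against 1443, 1370, 300 and 255 to 1448 (1448 without that array), and at 1500 mg/kg 3228, against 1550 with only both groups and 2032 to 3321. Between 1000 and 500 mg/kg there were 2, against 5 with array weights, 4 with the replicate block and 0 to 10. Between 1500 and 1000 mg/kg there were 224, against 418 with array weights, 342 at the 60th percentile, 54 without trend, 0 with only both groups and 13 to 924. Without trend DAM gave 235 in place of 705 at 800 mg/kg, 1501 in place of 2296 at 2000 mg/kg and 60 in place of 207 between them; with 1 array left out the counts were 382 to 575, 1492 to 1882 and 121 to 198. The difference of compounds gave 914, and 502 to 1425. Median scaling moved the median change by 0.11, 0.12 and 0.11 at PBO 1000, PBO 1500 and DAM 2000 mg/kg. It moved the share of calls that were higher to 84.1% in place of 73.0% at PBO 500 mg/kg, 80.5% in place of 60.4% at 1000, 63.0% in place of 46.6% at 1500, 65.7% in place of 47.2% in the slope, 73.3% in place of 57.2% at DAM 800 and 73.9% in place of 50.4% at DAM 2000 mg/kg. Under it Slco1b2 at DAM 2000 mg/kg lost its call, and Slco1a1 at PBO 1500 mg/kg stood at 0.00.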
